A study of Mus musculus with 9 samples.

Results

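The 3 RUNX transcription factors, their shared partner CBFB and the 3 ETO family corepressors were followed in the messenger RNA of 3 mouse myeloid cell lines. Their 7 genes, Runx1, Runx2, Runx3, Cbfb, Runx1t1, Cbfa2t2 and Cbfa2t3, were taken by symbol from a table of 54347 genes. The rule uses no measured value, but it was drawn up with earlier results of these data known. Of the 7, 6 had enough counts to be tested, and Runx1t1 had 0 counts in every library. The clearest difference was in Cbfa2t3, which was lower in the leukemic line URE-AML than in either progenitor line, while Runx1 made up a larger part of the RUNX messenger RNA in all 3 URE-AML libraries than in any other.

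RUNX proteins bind DNA through a Runt domain and gain affinity and stability when they pair with CBFB, which does not itself bind DNA. RUNX1 is required for the first blood stem cells and for megakaryocytes and lymphocytes, RUNX2 is best known from bone formation and RUNX3 from T cells, natural killer cells and sensory neurons. The ETO proteins, encoded by Runx1t1 (ETO), Cbfa2t2 (MTGR1) and Cbfa2t3 (ETO2 or MTG16), do not bind DNA themselves and bring NCOR and histone deacetylases to other factors. RUNX1T1 and CBFA2T3 are fused to RUNX1 in human myeloid leukemias, CBFB is fused to a myosin chain in others, and ETO2 is also a part of the SCL (TAL1) complex with LMO2, LDB1 and GATA factors in blood progenitors.

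Hox-WT (genotype WT) and Hox-URE (genotype UREd/d) are hematopoietic progenitor lines, each made from Lin-, c-Kit+ bone marrow of a mouse by a Hoxb8 fusion protein that needs estradiol. URE-AML, named B22 in the sample labels, has the genotype UREd/d, is described as AML blast-like and grew out of blasts of a leukemic UREd/d mouse without that fusion protein. The deleted element, URE, is an upstream enhancer of the Spi1 gene, which encodes the myeloid factor PU.1. All lines were grown with 20% serum, 10 ng/ml each of IL-3, IL-6 and SCF, and estradiol, and each gave 3 poly-A RNA libraries. Each genotype and stage was represented by 1 line, so leukemic state, Hoxb8 fusion and mouse of origin cannot be told apart between URE-AML and Hox-URE, which share the deletion, nor can these and the deletion between URE-AML and Hox-WT. The p-values measure the spread between libraries of a line, which may be technical.

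Total counts per library were 20331064 to 28588718, and 3 counts, taken as the floor, stood at 0.104 to 0.153 CPM (counts scaled by library size with TMM factors), which covers counting error only. Spi1 had 2932, 2832 and 2791 counts in Hox-WT, 1, 1 and 0 in Hox-URE, and 62, 116 and 148 in URE-AML, so both UREd/d lines had less Spi1 RNA than Hox-WT. Kit, a progenitor marker, was present in all lines (175 ± 15.7 CPM in Hox-WT, with 43.0 ± 7.62 for Hox-URE and 97.0 ± 3.67 for URE-AML, SD, n = 3). Cd34, which marks early progenitors, was at 1430 ± 119 and 926 ± 267 CPM in the Hox lines and at 0.0135 ± 0.0233 CPM in URE-AML. The 10 neutrophil markers summed to 5610 to 9040 CPM in Hox-WT, with 2620 to 4000 for Hox-URE and 11300 to 26000 for URE-AML. Most of the Hox-URE sum was Ctsg (1990 ± 356 CPM in Hox-WT and 3330 ± 738 in Hox-URE), and S100a8 and S100a9 had 38.4 ± 9.62 and 17.9 ± 7.88 CPM in Hox-WT but 0.0723 ± 0.0849 and 0 in Hox-URE.

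The start regions of the RUNX genes are shown because the 3 genes share a sequence there that their own products can bind. RefSeq windows of 300 bases (250 before and 50 after a start, GRCm38.p6) were at hand for 6 of the 7 genes, 9 windows in all. The longest stretch common to the windows of Runx1 (distal start), Runx2 and Runx3 (distal start) was 18 bases long, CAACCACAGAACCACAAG, and held ACCACA, the reverse complement of the RUNX motif TGTGGT, in 2 copies. Counting the RefSeq start as position 1, it began at position 27 of Runx1 and 22 of Runx2, and 136 bases before the start of Runx3. Of 32851 windows in the table, 4 (0.0122%) held it on either strand. They were these 3 and the overlapping opposite-strand window of Gm16225, a noncoding neighbour of Runx3. Each site is given as 30 bases, 5′ to 3′ on the strand of the gene, with ACCACA in capitals, from chr16:92826026-92826055 (minus strand), chr17:44814584-44814613 (minus strand) and chr4:135120502-135120531 (plus strand).
Runx1: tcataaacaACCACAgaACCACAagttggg
Runx2: tcacaaacaACCACAgaACCACAagtgcgg
Runx3: ggtccctcaACCACAgaACCACAaggccag

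The stretch lay within the windows of these genes, and the start of each transcript was not measured in these libraries, so the share of each promoter in the counts is unknown. TGTGGT on either strand was found in 16.8% of all windows, TGCGGT in 6.45% and GAGGAA, a core of PU.1 sites, in 28.3%. No matches overlapped in the 9 windows. The proximal windows of Runx1, Runx3 and Cbfa2t3 and the windows of Cbfb and Cbfa2t2 held neither RUNX motif.

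The upstream 250 bases of Cbfa2t3 are shown because this gene differed most between lines among the 7. They come from chr8:122699110-122699359 (distal start, minus strand) and chr8:122678176-122678425 (proximal start, minus strand), 5′ to 3′ on the strand of the gene, with the RUNX motifs and GAGGAA on either strand in capitals. The distal region held GAGGAA at 237 and 162 bases and TGCGGT, as ACCGCA, at 124 bases before the start. The proximal region, at 83.2% G and C against 64.0%, held none of the 3. AGATAA, which the products of Gata1 and Gata2 bind, was found in 11.2% of all windows and in 0 of the 9.
Cbfa2t3 distal: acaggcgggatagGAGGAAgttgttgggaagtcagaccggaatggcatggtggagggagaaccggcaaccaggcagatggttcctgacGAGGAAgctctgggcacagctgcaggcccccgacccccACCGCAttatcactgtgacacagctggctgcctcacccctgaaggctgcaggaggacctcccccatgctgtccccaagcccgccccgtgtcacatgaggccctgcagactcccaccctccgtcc
Cbfa2t3 proximal: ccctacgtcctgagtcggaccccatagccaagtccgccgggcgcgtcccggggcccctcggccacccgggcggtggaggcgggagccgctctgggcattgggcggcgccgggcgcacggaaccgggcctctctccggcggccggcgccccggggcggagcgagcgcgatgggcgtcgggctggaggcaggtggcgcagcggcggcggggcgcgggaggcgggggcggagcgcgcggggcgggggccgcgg

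Across the 3 comparisons, a gene was called when its edgeR adjusted p stayed below 0.05 and the change exceeded 1.5-fold. Hox-URE and Hox-WT differ in the enhancer of Spi1, in the mouse they came from and in their separate derivation as lines. These cannot be told apart here. In Hox-URE against Hox-WT, 0 of the 6 tested RUNX, CBFB and ETO genes were called, where 37.2% of all 13082 tested genes were (21.3% higher and 15.9% lower). At any fold, 1 of the 6 had an adjusted p under 0.05 (edgeR), against 53% of tested genes. Of the 6, 2 had an unadjusted p under 0.05 (edgeR), Cbfb and Cbfa2t3, against 58.5% of tested genes, and DESeq2 also called 0. Their median absolute log2 fold change was 0.15, against 0.49 over all tested genes. Cbfb and Cbfa2t3 were higher in every Hox-URE than in every Hox-WT library, a pattern seen in 30.9% of tested genes, with 29.4% apart the other way and 60.3% in all.

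Between URE-AML and Hox-WT, 4 of the 6 were called, against 43.2% of all tested genes. Cbfa2t3, Runx3 and Cbfa2t2 were lower in URE-AML (20.2% of tested genes were called lower) and Runx1 was higher (23% were called higher). In bulk RNA, fewer cells with a transcript and less of it per cell cannot be told apart. The same 4 genes had libraries that did not overlap, as had 67.6% of tested genes (34.4% higher and 33.2% lower). In the comparison of URE-AML with Hox-URE only Cbfa2t3 was called, 1 of the 6, and it was lower, against a background of 42.7% called, 20.3% higher and 22.4% lower. At any fold, 4 of the 6 had an adjusted p under 0.05 (edgeR), against 58% of tested genes. The libraries did not overlap in any of the 6, against 62.8% of tested genes, with Runx1 higher in URE-AML (a pattern of 31.8% of tested genes) and the other 5 lower (31.1%). The median log2 fold change of the 6 was 0.07, -0.47 and -0.50 in the 3 comparisons, and that of all tested genes was 0.00 in each. URE-AML against each Hox line and Hox-URE against Hox-WT share libraries, so the 3 comparisons are not independent.

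**Figure D1:**
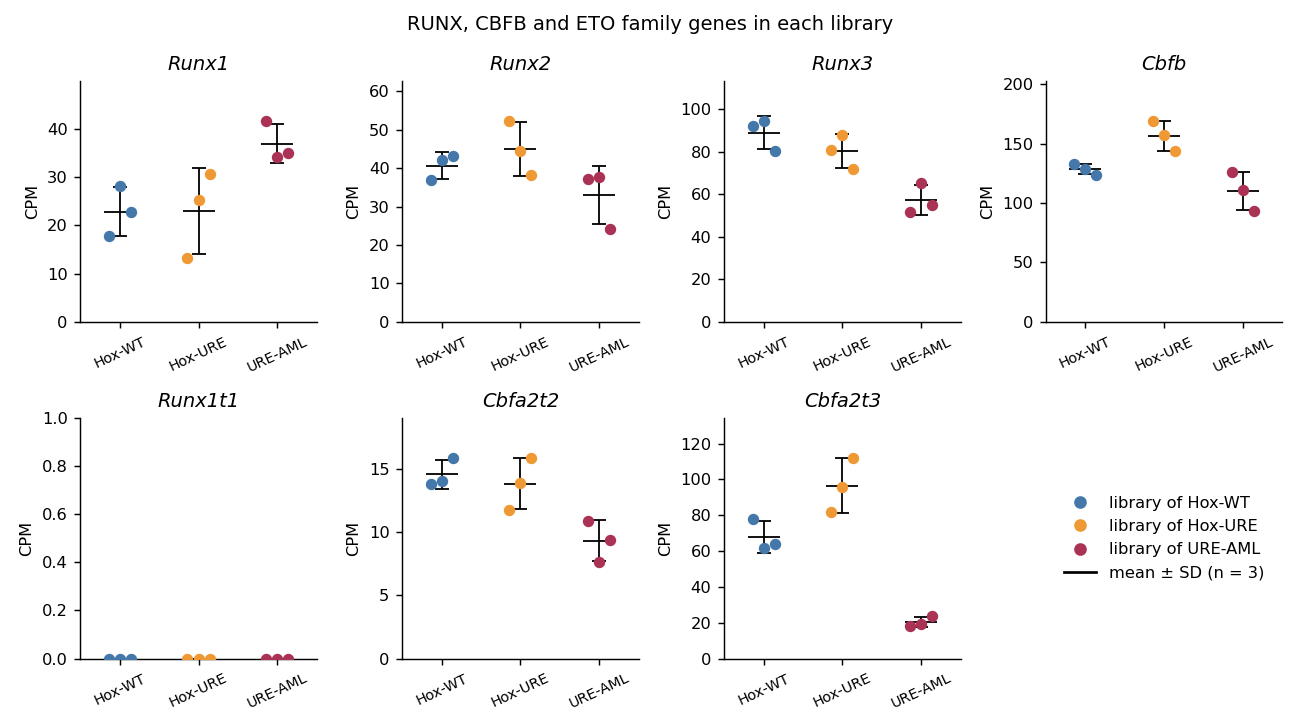
Level of each gene (CPM, y axes from 0) in the 3 libraries of each line, with mean ± SD (n = 3). Cbfa2t3 is at 18.3 to 23.5 CPM in URE-AML and at 61.7 or more in the other lines, and Runx1t1 is at 0 in all 9 libraries.

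Runx1 (ENSMUSG00000022952, chromosome 16, 92601466 to 92826149 of GRCm38, minus strand) had 17.8, 28.1 and 22.7 CPM in Hox-WT libraries 1 to 3, 13.2, 25.2 and 30.7 in Hox-URE and 41.6, 34.2 and 35.1 in URE-AML. All URE-AML libraries lay above all others, and the Hox lines overlapped throughout, with the widest spread in Hox-URE. The means were 22.9 ± 5.12, 23.0 ± 8.96 and 37.0 ± 4.02 CPM (SD, n = 3). The difference of Hox-URE from Hox-WT was 0.00 ± 0.27 on the log2 scale (SE, edgeR adjusted p = 1). That of URE-AML from Hox-WT was 0.69 ± 0.27 (SE, edgeR adjusted p = 0.0495), just past the threshold, and that from Hox-URE was 0.69 ± 0.27 (edgeR adjusted p = 0.0512), just short of it. The first of these calls was lost in 9 of 18 alternatives. Among them were the fits without URE-AML library 1, 2 or 3 (log2 0.60, 0.75 and 0.73), Hox-WT library 1 or 3 (0.54 and 0.68) or Hox-URE library 2 (0.68), 2 other scalings and glmTreat. The difference from Hox-URE was called in 5 of 18, among them without Hox-URE library 3 (0.95) and by DESeq2 (0.68), and it was 0.40 and not called without Hox-URE library 1.

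Runx3 (ENSMUSG00000070691, chromosome 4, 135120652 to 135177990, plus strand) had 92.2, 94.3 and 80.2 CPM in Hox-WT, 80.7, 88 and 71.9 in Hox-URE and 51.5, 65.4 and 55 in URE-AML. Every URE-AML library lay under every library of the other lines. It was the RUNX gene with the most RNA per length in each line. The call against Hox-WT was for a lower level, at log2 -0.63 ± 0.12 (SE, edgeR adjusted p = 0.00105). This was lost in a test against 1.5-fold itself (glmTreat) and without URE-AML library 1 (-0.56). The difference from Hox-URE was -0.49 ± 0.12 (edgeR adjusted p = 0.00535), which was under 1.5-fold and was called without URE-AML library 2 (-0.59) or when no fold was required. Hox-URE and Hox-WT overlapped (log2 -0.15 ± 0.12, edgeR adjusted p = 0.316).

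Runx2 (ENSMUSG00000039153, chromosome 17, 44495987 to 44814797, minus strand) had 36.8, 42.1 and 43.1 CPM in Hox-WT, 52.2, 44.4 and 38.1 in Hox-URE and 37.1, 37.7 and 24.2 in URE-AML. It was called in none of the 3 edgeR comparisons, with log2 fold changes of 0.14 ± 0.18 (Hox-URE against Hox-WT), -0.30 ± 0.18 (URE-AML against Hox-WT) and -0.44 ± 0.18 (URE-AML against Hox-URE, edgeR adjusted p = 0.0532), and in none of their alternatives. Its URE-AML libraries all lay under the Hox-URE libraries but overlapped with Hox-WT.

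Several transcripts lie inside Runx2 on the other strand, and the kit used keeps strand. The noncoding Runx2os1 (chromosome 17, 44735845 to 44737612) had 78, 100 and 90 counts in Hox-WT, 126, 74 and 78 in Hox-URE and 47, 42 and 37 in URE-AML. It was called lower in URE-AML, by a log2 fold change of -0.81 against Hox-WT (edgeR adjusted p = 0.015) and -1.09 against Hox-URE (edgeR adjusted p = 0.00305), so the antisense RNA passed the threshold where Runx2 did not. Whether Runx2 and Runx2os1 differed from each other in their change was not tested. Runx2os2 reached at most 17 counts, with 1, 2 and 2 in URE-AML, and was not tested. Runx2os3 and, on the strand of Runx2, the rRNA gene n-R5s27 had 0 counts. Supt3, a SAGA complex gene that overlaps the start of Runx2, had 22.1, 20.0 and 24.5 CPM on average in the order Hox-WT, Hox-URE, URE-AML and was not called in any comparison.

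**Figure D2:**
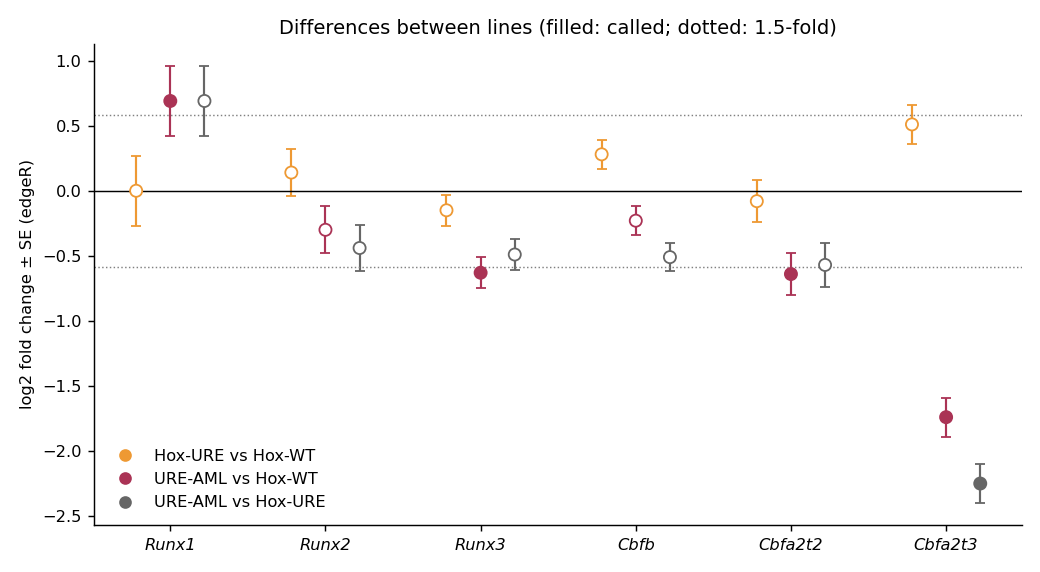
Log2 fold change ± SE (edgeR, 3 libraries a line) of the 6 tested genes in each comparison, with filled points for called differences and dotted lines at 1.5-fold. Cbfa2t3 stands at -1.74 and -2.25 for URE-AML, and the other points lie between -0.64 and 0.69.

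Levels of different genes were compared as CPM per kilobase of merged exons, since longer messages give more reads. In Hox-WT the order was Cbfb (37.0 ± 1.36, SD, n = 3), Runx3 (17.8 ± 1.53), Cbfa2t3 (8.11 ± 1.04), Runx2 (4.6 ± 0.381), Runx1 (1.90 ± 0.425) and Cbfa2t2 (1.69 ± 0.137). The order was the same in Hox-URE, with Cbfb at 45 ± 3.52 and Cbfa2t3 at 11.5 ± 1.78, and in both lines only Runx1 and Cbfa2t2 overlapped with their neighbour in it. In URE-AML Cbfa2t3, at 2.43 ± 0.335 CPM per kb, had moved behind Runx2 (3.74 ± 0.86) and Runx1 (3.08 ± 0.335), which overlapped with each other. Per length of the longest transcript, the mean of Runx1 (6.31 ± 0.687) stood above that of Runx2 (5.11 ± 1.18) in URE-AML, again with overlapping libraries. By coding length Runx1 (26.5 ± 2.89) stood above Runx2 (18.5 ± 4.25) there without overlap, so their order depended on the length used.

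Runx1 was 6.16%, 9% and 8.29% of the summed RUNX level per length in Hox-WT, 4.74%, 8.48% and 12.0% in Hox-URE and 19.3%, 14.1% and 17.5% in URE-AML. Runx3 was 70.3% to 76.5% in Hox-WT, with 67.7% to 71.2% for Hox-URE and 57.3% to 66.0% for URE-AML. The Runx2 share, at 16.5% to 25.6%, overlapped among all lines. For both Runx1 and Runx3 the URE-AML libraries lay outside the range of the other lines. With 3 libraries a line an exact two-sided permutation test cannot give a p under 0.1, and it gave that smallest value for both shares in both comparisons of URE-AML (exact p = 0.1, adjusted p = 0.18 over 9 tests). The Runx1 share was 9.16 percentage points higher in URE-AML than in Hox-WT and 8.56 higher than in Hox-URE, and the difference between the Hox lines was 0.598 (exact permutation p = 0.9). The mean Runx1 share of URE-AML was 17.0% by merged exons, 24.3% by the longest transcript and 29.6% by coding length, against 7.82%, 11.8% and 14.9% in Hox-WT.

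The summed RUNX level was 24.3 ± 1.59, 23.0 ± 1.74 and 18.3 ± 1.78 CPM per kb in the order Hox-WT, Hox-URE, URE-AML (SD, n = 3). URE-AML libraries, at 16.7 to 20.2, lay under those of the other lines, at 21.2 to 26.0. Per length, Runx1 was 1.90 in Hox-WT and 3.08 in URE-AML, and Runx3 was 17.8 and 11.4.

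**Figure D3:**
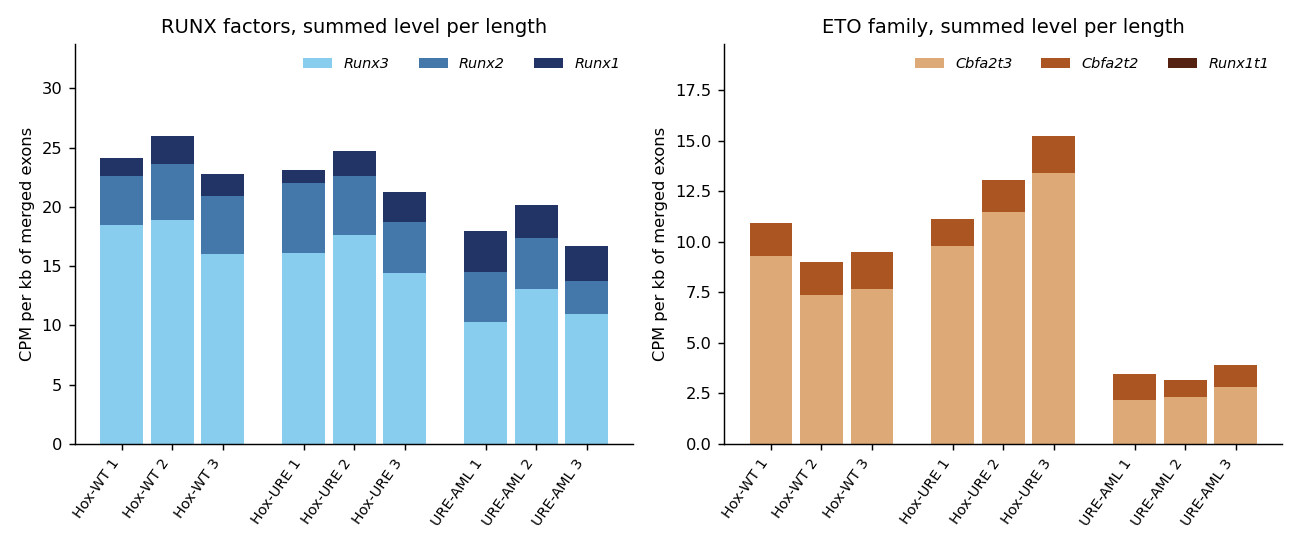
CPM per kilobase of merged exons in each library, stacked by gene, for the RUNX factors (left) and the ETO family (right). Runx3 is the largest RUNX part in all 9 libraries, and the ETO sum is 3.18 to 3.90 in URE-AML against 8.99 to 15.2 in the Hox lines.

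Cbfb (ENSMUSG00000031885, chromosome 8, 105170674 to 105217989, plus strand) had 133, 129 and 124 CPM in Hox-WT, 169, 157 and 144 in Hox-URE and 126, 111 and 93.5 in URE-AML. The Hox-URE libraries lay above all others, and URE-AML overlapped with Hox-WT. The log2 fold change was 0.28 ± 0.11 for Hox-URE against Hox-WT (SE, edgeR adjusted p = 0.0563) and -0.23 ± 0.11 for URE-AML against Hox-WT (edgeR adjusted p = 0.109). For URE-AML against Hox-URE it was -0.51 ± 0.11 (edgeR adjusted p = 0.00296), a 1.42-fold difference that fell short of the fold threshold and was called without URE-AML library 1 (-0.61). The log2 ratio of Cbfb to the summed RUNX level per length was 0.610 ± 0.0823 in Hox-WT, with 0.967 ± 0.102 for Hox-URE and 0.787 ± 0.192 for URE-AML (SD, n = 3), so Cbfb RNA exceeded that of the 3 RUNX genes together in each line. Hox-URE exceeded Hox-WT by a mean of 0.357 in this ratio, without overlap (exact permutation p = 0.1, the smallest possible, adjusted p = 0.18), and the other pairs of lines overlapped.

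Cbfa2t3 (ENSMUSG00000006362, chromosome 8, 122625141 to 122699109, minus strand) had 77.9, 61.7 and 64.1 CPM in Hox-WT, 81.8, 95.9 and 112 in Hox-URE and 18.3, 19.2 and 23.5 in URE-AML. The lines did not overlap in any pair, with Hox-URE highest and URE-AML lowest. URE-AML had a 3.34-fold lower level than Hox-WT (log2 -1.74 ± 0.15, SE, edgeR adjusted p = 4.91e-06) and a 4.74-fold lower one than Hox-URE (log2 -2.25 ± 0.15, edgeR adjusted p = 9.57e-07). Both were called under all 18 alternatives, with log2 fold changes of -1.86 to -1.63 and of -2.36 to -2.13. Of all tested genes, 9.26% and 4.82% had a smaller p in these comparisons. Hox-URE was above Hox-WT by 0.51 ± 0.15 on the log2 scale (edgeR adjusted p = 0.014), 1.42-fold, and was called higher without Hox-WT library 1 (0.61) or Hox-URE library 1 (0.60), or when no fold was required.

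Cbfa2t2 (ENSMUSG00000038533, chromosome 2, 154436481 to 154539356, plus strand) had 13.8, 14.1 and 15.9 CPM in Hox-WT, 11.8, 13.9 and 15.9 in Hox-URE and 10.9, 7.66 and 9.40 in URE-AML. The Hox lines overlapped and URE-AML lay under both. The log2 difference of URE-AML from Hox-WT was -0.64 ± 0.16 (SE, edgeR adjusted p = 0.00673), which was not called by glmTreat or without URE-AML library 2 (-0.52). The difference from Hox-URE was -0.57 ± 0.17 (edgeR adjusted p = 0.0132), 1.48-fold, and was called when the 6 libraries of these lines were fitted alone (-0.59) and without Hox-URE library 1 (-0.68) or URE-AML library 1 (-0.70).

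Runx1t1 (ENSMUSG00000006586, chromosome 4, 13743436 to 13893649, plus strand) had 0 counts in all 9 libraries, which allows up to 0.104 to 0.153 CPM per library, so ETO itself was not detectable at this depth. Cbfa2t3 made up 82.6% ± 2.48, 87.8% ± 0.104 and 69.2% ± 5.06 (SD, n = 3) of the ETO family level per length in the order Hox-WT, Hox-URE, URE-AML, and Cbfa2t2 the rest. The ETO sum was 9.80 ± 0.984, 13.1 ± 2.02 and 3.51 ± 0.362 CPM per kb. Cbfa2t3 was the leading ETO family gene in each line, and the family sum was lowest in URE-AML.

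Position on the chromosome was not used to choose these genes, and the genes around Cbfa2t3 were called in both directions. In URE-AML against Hox-URE, 40 other genes within 1 Mb were tested, and their median log2 fold change was 0.24, with 9 called higher and 8 lower, next to 20.3% and 22.4% of all tested genes. The nearest tested protein-coding gene on each side was Trappc2l, a trafficking complex subunit 8481 bases away (log2 0.44 ± 0.11, edgeR adjusted p = 0.00551, under 1.5-fold), and, on the other side, Acsf3, an acyl-CoA synthetase 76377 bases away (1.15 ± 0.15, SE, edgeR adjusted p = 8.11e-05). Both stood higher in URE-AML, opposite to Cbfa2t3. Galns (1.70) and Aprt (1.05), chosen after their values were seen, lie nearer than Acsf3 and were also called higher. Of the 8 called lower, the 3 with the largest differences were likewise chosen after their values were seen. The noncoding Gm42047 had means of 285, 181 and 0.132 CPM in the order Hox-WT, Hox-URE, URE-AML, and Spire2 had 0.551, 0.824 and 0.0619. Zfpm1, at -287.9 kb, encodes the GATA cofactor FOG1. Its mean was 3.29 CPM in URE-AML, 111 in Hox-URE and 71.7 in Hox-WT, with log2 -5.08 ± 0.18 for URE-AML against Hox-URE (SE, edgeR adjusted p = 1.1e-08). The chromosome as a whole, with 696 tested genes, had a median of 0.03.

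**Figure D4:**
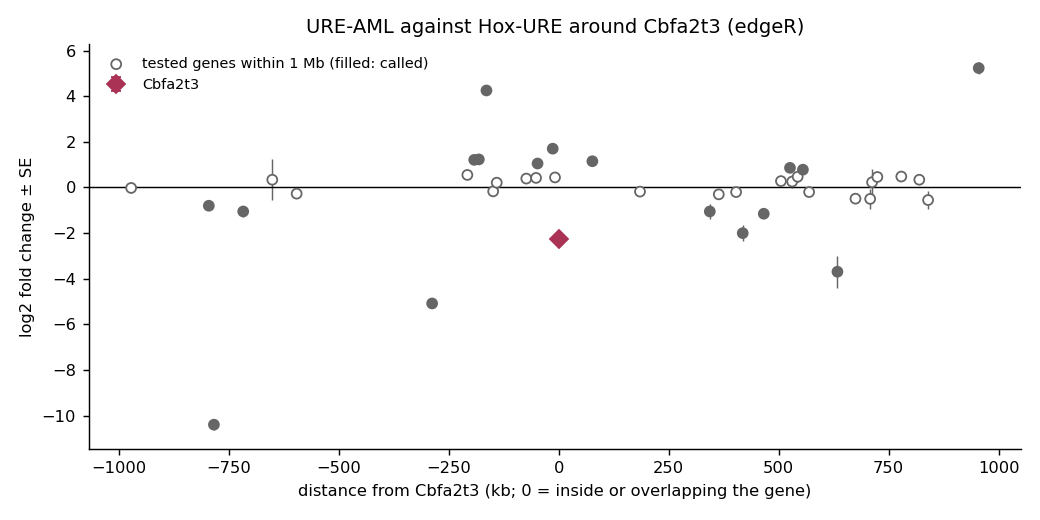
Log2 fold change ± SE of URE-AML against Hox-URE (edgeR) for the tested genes within 1 Mb of Cbfa2t3, by distance in kb. Cbfa2t3 lies at -2.25, and the neighbours lie on both sides of 0, with a median of 0.24, 9 called higher and 8 lower.

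Around Runx1, which has few tested genes nearby, Rcan1 (130599 bases away, an inhibitor of calcineurin) was called higher in URE-AML against Hox-WT (log2 0.66 ± 0.13, SE, edgeR adjusted p = 0.00122), and Setd4 (757308 bases away) was called lower (-1.29 ± 0.28, edgeR adjusted p = 0.00298). The median of the 17 genes within 1 Mb of Runx1 was -0.57 in that comparison. Around Cbfa2t2, Necab3 at 5043 bases was called lower (-1.84 ± 0.44, edgeR adjusted p = 0.00466) and Cdk5rap1 at 63471 bases was not called (0.22 ± 0.18), with 0 of 24 genes within 1 Mb called higher and 8 lower, next to 23% and 20.2% of all tested genes, and a median of -0.29. Beside Runx3, the chloride channel gene Clic4 had 0.36 ± 0.09 and the splicing gene Syf2 -0.10 ± 0.11, and neither was called. Beside Runx2, Clic5 was called higher (2.58 ± 0.37) and Cdc5l was not called (-0.22 ± 0.14). The nearest tested gene on the right of Cbfb, D230025D16Rik at 7156 bases, had 0.28 ± 0.11 and was not called, and Ces2g on its left, at 201137 bases, was called higher. Of the genes beside the undetected Runx1t1, Fam92a, 1571421 bases away, was called higher (6.27 ± 0.29) and Otud6b, 915849 bases away, was not called (-0.04 ± 0.13).

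RUNX and ETO proteins act with shared corepressors, and 15 such genes were tested. In URE-AML against Hox-WT, 5 were called higher and 3 lower (53.3%), against 43.2% of all tested genes, and their median log2 fold change was -0.03. The full-length Groucho proteins bind the C-terminal end of RUNX proteins. The genes of this family moved in opposite directions. Tle1 was at 17.0 ± 2.01 CPM in Hox-WT, with 49.1 ± 9.49 for Hox-URE and 0.537 ± 0.1 for URE-AML (SD, n = 3), a log2 fold change of -4.97 ± 0.22 between URE-AML and Hox-WT (edgeR adjusted p = 3.64e-08) and of 1.53 ± 0.16 between Hox-URE and Hox-WT. Tle4 was lower in both UREd/d lines, at log2 -2.85 ± 0.13 in URE-AML and -0.91 ± 0.12 in Hox-URE against Hox-WT. Tle2 (5.17 ± 0.63), the short family member Tle5 (1.62 ± 0.26) and Tle3 (0.93 ± 0.14) were higher in URE-AML than in Hox-WT.

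Among the complexes that ETO proteins recruit, Ncor1 was at log2 0.45 ± 0.11 in URE-AML against Hox-WT (SE, edgeR adjusted p = 0.0046), under 1.5-fold. Hdac1 (-0.51 ± 0.09), Hdac2 (-0.50 ± 0.11) and Hdac3 (0.44 ± 0.09) likewise had an edgeR adjusted p under 0.05 there but stayed under 1.5-fold. Sin3a (-0.03 ± 0.11) and Sin3b (-0.07 ± 0.14) were not called in that comparison either. Tbl1xr1 (0.90 ± 0.19) was called higher and Gps2 (-0.70 ± 0.09) lower, both parts of the NCOR complex. Against Hox-WT, Hox-URE had 3 corepressor genes called higher, Tle1, Tle2 and Tle5, and 2 lower, Tle4 and Hdac2 (-0.97 ± 0.11), out of 15 (33.3%, next to 37.2% of all tested genes). Between URE-AML and Hox-URE 4 were called higher and 3 lower (46.7%, next to 42.7%), among them Tle2 (2.72 ± 0.53), Tle3 (0.92 ± 0.14) and Hdac3 (0.72 ± 0.09) on the higher side and Tle1 (-6.50 ± 0.22), Tle4 (-1.94 ± 0.12) and Sin3b (-0.64 ± 0.14) on the lower.

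A list of 14 tested genes covered the SCL complex that takes up ETO2 and factors associated with it. Of the 14, 9 were called in URE-AML against Hox-WT (4 higher, 5 lower, 64.3%), next to 43.2% of all tested genes. Against Hox-URE 11 were called (6 higher, 5 lower, 78.6%), next to 42.7%. Fli1 and Erg stand in the list as associated factors, and both were called in URE-AML against Hox-WT (log2 0.69 ± 0.14 and -0.65 ± 0.18). The stem cell factor Gata2 had 109 ± 3.29 CPM in Hox-WT, with 217 ± 24 for Hox-URE and 9.14 ± 3.66 for URE-AML (SD, n = 3; URE-AML against Hox-URE log2 -4.58 ± 0.24, edgeR adjusted p = 1.33e-07). Lmo2, the bridging protein of the complex, had 276 ± 36.1, 229 ± 38.2 and 91.6 ± 9.66 CPM (log2 -1.32 ± 0.15), and Tal1 had 151 ± 10.4, 259 ± 51.9 and 93.6 ± 12.9 (log2 -1.47 ± 0.15). Compared with Hox-WT, Gata2 and Tal1 were both called higher in Hox-URE while URE-AML had less of each. Tcf12, an E protein, was called higher in Hox-URE (1.43 ± 0.12) but had 0.35 ± 0.11 in URE-AML against Hox-WT. Tcf4, another E protein, and Ssbp3 were called higher in URE-AML than in Hox-WT (1.84 ± 0.10 and 1.13 ± 0.15). Lyl1, a close relative of Tal1, was called in no comparison, with log2 fold changes of -0.02 to 0.00. In Hox-URE against Hox-WT 3 of 14 were called higher and 2 lower (35.7%, next to 37.2% of all tested genes). The 2 lower were Tcf3 (-1.07 ± 0.09) and Gata1, which had 1.27 ± 0.42 CPM in Hox-WT and 0.101 ± 0.0563 in Hox-URE.

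**Figure D5:**
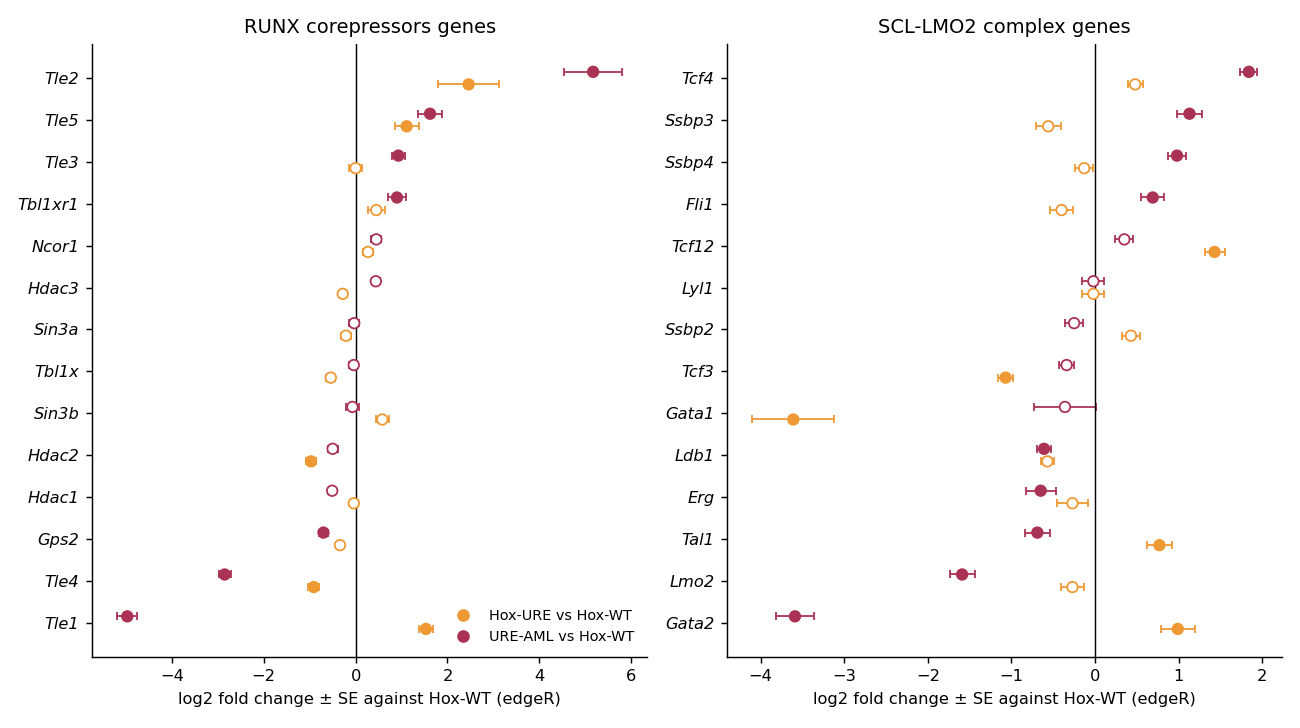
Log2 fold change ± SE against Hox-WT (edgeR) in Hox-URE and URE-AML, filled where called. Shown are 14 of the 15 corepressor genes (left) and 14 genes of the SCL-LMO2 complex and associated factors (right). Tle1 is at 1.53 in Hox-URE and -4.97 in URE-AML, and Gata2 at 0.99 and -3.59.

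Of 18 coactivators and enzymes that modify RUNX proteins, 17 were tested, and URE-AML against Hox-WT had 3 called higher with 3 lower (35.3%, next to 43.2% of all tested genes). The kinase gene Hipk1 (log2 1.40 ± 0.15) and the ubiquitin ligase gene Smurf1 (2.14 ± 0.18) were higher in URE-AML, and also in Hox-URE (0.78 ± 0.15 and 1.06 ± 0.18). Wwtr1, the gene of the coactivator TAZ, had 0 CPM in Hox-WT, with 1.11 ± 0.379 for Hox-URE and 10.3 ± 1.14 for URE-AML. The arginine methyltransferase gene Prmt1 was lower in both UREd/d lines (-0.79 ± 0.10 in each). Hipk2 (-0.98 ± 0.17) and Kmt2a (-0.89 ± 0.17), whose product is a histone methyltransferase that binds RUNX1, were called lower in URE-AML against Hox-WT. Yap1, the relative of Wwtr1, reached at most 5 counts. Against Hox-WT, Hox-URE had 3 genes higher and 1 lower (23.5%, next to 37.2%). Between URE-AML and Hox-URE 6 were called higher, with Wwtr1 and Smurf1 (1.08 ± 0.18) in the lead, and 2 lower, Kmt2a (-0.92 ± 0.17) and Hipk2 (-0.89 ± 0.17), or 47.1% next to 42.7% of all tested genes.

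Of 17 genes known as RUNX1 targets in blood cells, 11 were tested, and 9 were called in each comparison with Hox-WT (81.8%), next to 37.2% of all tested genes for Hox-URE and 43.2% for URE-AML. Mpo, which encodes myeloperoxidase, was at 5040 ± 1520 CPM in Hox-WT, with 5.04 ± 4.45 for Hox-URE and 192 ± 19 for URE-AML, and Csf1r, the M-CSF receptor, was at 0.783 ± 0.259, 0 and 0.0135 ± 0.0233 CPM. Elane, which encodes neutrophil elastase, was called lower in Hox-URE and higher in URE-AML, at 181 ± 62.4 CPM in Hox-WT, with 9.29 ± 1.29 for Hox-URE and 7310 ± 3120 for URE-AML (log2 -4.28 ± 0.38 and 5.34 ± 0.39 against Hox-WT, edgeR adjusted p = 8.77e-06 and 1.29e-06). Gfi1 was lower in Hox-URE (-0.63 ± 0.13) and had 0.28 ± 0.13 in URE-AML, and its relative Gfi1b was higher in both (2.78 ± 0.46 and 2.27 ± 0.46). The integrin gene Itgal was higher in both (3.13 ± 0.17 and 1.87 ± 0.16), and so were Nfe2 in Hox-URE (0.94 ± 0.11) and Cdkn1a (0.83 ± 0.13) and Zbtb7b (1.26 ± 0.12) in URE-AML. Pf4, from the platelet lineage, was lower in both, at 2.35 ± 0.689, 0.366 ± 0.159 and 0.237 ± 0.236 CPM. Csf2, Il3, Myl9, Alox12 and Cd4 were at or under 3 counts in every library. With Hox-URE as the reference, URE-AML had 5 of the 11 called higher and 1, Itgal (-1.26 ± 0.16), was lower (54.5%, next to 42.7% of all tested genes). Several of these genes, among them Mpo, Elane and Csf1r, are also known targets of PU.1, and Spi1 is itself in the list.

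The target lists of the other RUNX factors were mostly silent. Of 9 skeletal RUNX2 targets, 6 stayed at or under 3 counts in every library, namely Ibsp, Col1a1, Col10a1, Bglap, Bglap2 and Sp7. The exceptions were Spp1, which encodes osteopontin and had 1.65 ± 0.177 CPM in Hox-WT, with 263 ± 87.8 for Hox-URE and 947 ± 816 for URE-AML, Mmp13, with 0.0353 ± 0.0357, 5570 ± 719 and 6.01 ± 2.69 CPM, and Alpl, with 0, 1.39 ± 0.132 and 0.0143 ± 0.0248 CPM. Each of the 3 was called higher in Hox-URE against Hox-WT, as were 21.3% of all tested genes, and Runx2 was not called there. Mmp13 and Alpl were at or under 3 counts in every Hox-WT library and passed the count filter only through other lines. A call of higher was nearly fixed in advance for them, so the count of calls cannot be read as a result about the list. Of 7 lymphoid RUNX3 targets, 2 were tested. Prf1, the perforin gene, was at 0.035 ± 0.0346 CPM in Hox-WT, with 2.03 ± 0.603 for Hox-URE and 2.17 ± 1.09 for URE-AML, and was called higher in both. Gzmb was called higher in Hox-URE, at 3.37 ± 4.54 CPM against 0, with an SD above its mean. Prf1 and Gzmb were also at or under 3 counts in every Hox-WT library, so the same limit holds for their calls against Hox-WT. Cd8a, Itgae, Ifng and Tbx21 were at or under 3 counts in every library.

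Markers of other blood lineages moved with the line, and their part in the differences above was not tested. The 8 mast cell and basophil markers, of which 6 were tested, summed to 607 to 928 CPM in Hox-WT, with 1800 to 6370 for Hox-URE and 43.5 to 78.6 for URE-AML, the order of Cbfa2t3, although Gata2 stands in this list as well as in the SCL complex. In the Hox lines the sum was mostly Cpa3 with, in Hox-URE, Prss34, and Mcpt8 was called higher in URE-AML against Hox-WT (32.5 ± 15.3 and 8.56 ± 4.19 CPM). Fcer1a and Tpsb2 never passed 10 and 3 counts. The 6 megakaryocyte markers summed to 5.25 to 8.04, 20.8 to 62.0 and 0.162 to 1.33 CPM, in the same order, mostly from Itga2b and Gp1ba in Hox-URE. Pf4, called lower in Hox-URE as given above, and Ppbp, with 0.489 ± 0.138, 0.0138 ± 0.0239 and 0 CPM, did not follow the order of the sum. The 7 progenitor markers summed to 2010 to 2300, 1430 to 2000 and 452 to 484 CPM, and in Hox-URE against Hox-WT 4 were called lower and 1, Cd93, higher. The 8 monocyte markers summed to 302 to 310 CPM in Hox-WT, 841 to 941 in Hox-URE, nearly all from Ccr2 (885 ± 49.8), and 15.8 to 28.2 in URE-AML. Ccr2 was the 1 monocyte marker called higher in Hox-URE against Hox-WT, and 5 of the 7 tested were called lower. Adgre1 was at 274 ± 5.2 CPM in Hox-WT and 1.43 ± 1.22 in Hox-URE, Fcgr1 at 7.8 ± 1.42 and 0, and Irf8 at 7.44 ± 1.78 and 0.17 ± 0.0413. Of the 10 neutrophil markers, 8 were called lower in Hox-URE against Hox-WT, with Ctsg and Ly6g not called, and URE-AML had 9 called higher and 1, Mpo, lower.

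The remaining lineages were represented by few of their markers. The 7 erythroid markers summed to 5.92 to 18, 0.829 to 2.25 and 2.52 to 12.5 CPM, and Klf1, the erythroid master factor, was under 0.5 CPM on average in each line. The 10 T and NK cell markers summed to 156 to 418, 194 to 601 and 0.767 to 1.81 CPM. In the Hox lines nearly all of the sum was Thy1 (298 ± 135 and 420 ± 214 CPM), which was at 0 CPM in URE-AML. Cd3e, Cd8a and Ncr1 were at 0 throughout. The 6 B cell markers summed to 161 to 262, 78.8 to 137 and at most 0.215 CPM, from Igll1 and Ebf1, with Ms4a1 at 0 throughout. The 6 plasmacytoid dendritic markers (57.7 to 61.9, 55.1 to 84.1 and 105 to 110 CPM) were mostly Tcf4 and Bst2, with Siglech and Ccr9 at 0. The 7 stroma and bone markers (14.8 to 16.9, 46.9 to 76.1 and 10.3 to 20.1 CPM) were mostly Pdgfrb, with Col3a1, Dcn and Sp7 at 0.

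For each called gene, the 3 tested genes with the most similar pattern over the 9 libraries were read off, by Pearson's r of log2 CPM among 11515 named genes. The 9 points fall into 3 lines and share their libraries, so r mostly follows the differences between lines and is a description. Cbfa2t3 was most like Pla2g4a (cytosolic phospholipase A2), Aqp9 (a glycerol channel) and Vamp8 (a vesicle fusion protein), each with r = 0.993. Aqp9 had 23.3, 66.1 and 0.160 CPM on average in the order Hox-WT, Hox-URE, URE-AML and Vamp8 277, 480 and 62.4, the same order of lines. Runx1 was most like Tomm34 (r = 0.966), the interferon-induced Gbp2 (0.958) and Parp14 (0.948). Runx3 was most like the desaturase gene Fads1 (0.981), Ms4a6d (0.979) and the deadenylase gene Cnot8 (0.977), and Cbfa2t2 like the ribosomal protein gene Rpl6 (0.990), Naca (0.976) and Nol8 (0.966).

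Among the 6 genes themselves, Runx1 ran against all others over the 9 libraries, with r of -0.69 (Runx3) to -0.38 (Cbfa2t2), but with the mean of each line taken away r was 0.67 with Cbfa2t2 and 0.26 with Cbfa2t3. Cbfa2t2 and Cbfa2t3 had r = 0.83, and Runx2 and Cbfb had r = 0.86. Taken within lines, the last pair kept an r of 0.81 while Cbfa2t2 and Cbfa2t3 fell to 0.27 and Runx2 and Cbfa2t3 stood at -0.91. These within-line values rest on 3 libraries a line and are given as a description.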

How the data were processed

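Poly-A RNA was sequenced from 3 libraries of each of 3 lines with a stranded kit. The deposited values are estimated counts, 1 per gene and library, which the authors made with salmon and tximport and which are whole numbers here; the salmon version and transcriptome release are not given in the sources used here. Genes were placed with GENCODE M21 (GRCm38), which held 54094 of 54347 identifiers.

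Counts were tested with edgeR 4.0.16 in R 4.3.3 (quasi-likelihood, TMM scaling, all 9 libraries, line as the only term), after the filterByExpr rule (minimum count 10) kept 13082 genes, dropping 0.0499% of counts. A call needed a Benjamini-Hochberg adjusted p under 0.05 and over 1.5-fold. The steps were tested on simulated data. Alternatives were other scalings, filters, fold rules, DESeq2 1.42.0, a replicate block and leaving out each library. CPM used TMM library sizes, and log2 CPM for correlations a prior count of 1. Genes named by rule were the 7 genes, Spi1, genes overlapping the 7, the nearest tested protein-coding gene on each side, the 3 most similar genes of each called gene and, from the lists, the largest called changes, genes at or under 3 counts and the RUNX1 targets. Other list and marker genes, Zfpm1, Gm42047, Spire2, Galns and Aprt were named after their values were seen. The genes and lists were chosen with earlier results of these data known. Values of some list genes are not reported here.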

Additional observations from a re-analysis of the deposited data

Results flagged for a closer look

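Cbfa2t3 was the only 1 of the 6 tested genes whose change from Hox-WT was called different between the UREd/d lines. The difference, which equals URE-AML against Hox-URE, was -2.25 ± 0.15 on the log2 scale (SE, edgeR adjusted p = 9.57e-07), from 0.51 in Hox-URE and -1.74 in URE-AML. Of all tested genes, 42.7% were called in URE-AML against Hox-URE, 20.3% higher and 22.4% lower. At any fold, 4 of the 6 had an edgeR adjusted p under 0.05. All 3 URE-AML libraries lay under all 3 Hox-URE libraries for Cbfa2t3, as for 31.1% of tested genes and for 5 of the 6, Cbfa2t3 included.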

How the results depend on the processing

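The calls of Cbfa2t3 in URE-AML held under every alternative run. Of the 6 tested genes, URE-AML against Hox-URE called 1, but 2 with library size scaling alone, with no filter, with 6 libraries only, with the replicate block or with DESeq2, 4 with no fold threshold, and 1 to 3 with a library left out. URE-AML against Hox-WT called 4, but 1 with glmTreat, 3 with DESeq2-style or upper-quartile scaling and 2 to 4 with a library left out. Hox-URE against Hox-WT called 0, but 1 with no fold threshold and 0 to 1 with a library left out. Requiring 10 counts in every library called 3200, 3602 and 3553 genes in place of 4873, 5648 and 5591. The cause was not tested, beyond the fewer genes tested there. Runx1 in Hox-URE against Hox-WT, at 0.00, changed sign to -0.03 with upper-quartile scaling, -0.11 with library size alone, 0.00 (negative before rounding) with 6 libraries only and -0.02 with the replicate block, and spanned -0.26 to 0.28 with a library left out. Cbfa2t2 there spanned -0.19 to 0.02, and the difference in Runx1 share -1.21 to 2.44 percentage points. The Cbfa2t3 share of the ETO sum by the longest transcript was 78.6%, 84.7% and 63.4% in the order Hox-WT, Hox-URE, URE-AML, and 86.9% in Hox-URE by coding length.

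With the replicate number as a block, 4908, 5679 and 5584 genes were called. The numbers are not known to pair libraries: of 9 same-numbered pairs of libraries 2 had deviations correlated over 0.1 (r of 0.00 to 0.24), and in 14 of 18 comparisons of a library with another line its own number correlated best. Library size alone moved the median log2 fold change of all genes by 0.11 in URE-AML against Hox-URE, where it called 3166 genes higher and 2605 lower in place of 2662 and 2929. For Hox-URE against Hox-WT it called 2502 higher and 2545 lower in place of 2789 and 2084. Depth limits what can be said of Runx1t1, which could be missed under 0.104 to 0.153 CPM.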
